A study of Mus musculus with 6 samples.

Results

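The genes described here are 9 receptor genes in the lacrimal gland, which secretes the aqueous layer of the tear film: 8 nuclear hormone receptors, Esr1, Nr3c1, Nr3c2, Thra, Thrb, Rara, Rxra and Vdr, and the prolactin receptor gene Prlr. They were listed by name, with no threshold on a measured value, and are 9 of the 55401 gene identifiers in the count table. All 9 passed the filter on low counts that left 18537 genes for testing. RNA-seq of lacrimal glands was available for 3 NOD/Ltj samples, from a non-obese diabetic inbred strain that develops autoimmune inflammation of its lacrimal and salivary glands, and for 3 control ICR samples, from an outbred stock. The groups therefore differ in their whole genetic background, and the labels give no treatment, age, sex or collection time and do not say whether the samples of a group came from separate animals. If they did not, the p-values below measure technical spread only.

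Nuclear hormone receptors are transcription factors whose activity is set by a small lipophilic ligand: thyroid hormone, retinoic acid, vitamin D, glucocorticoid, mineralocorticoid or oestrogen. Thyroid hormone, retinoic acid and vitamin D receptors bind DNA mostly as heterodimers with a retinoid X receptor, whereas the steroid receptors bind mostly as homodimers. The prolactin receptor belongs to another family, the cytokine receptors of the cell surface, and signals through JAK2 and STAT5. The lacrimal gland is a known target of sex steroids, glucocorticoids, retinoids and prolactin.

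The nuclear receptors among these genes share a zinc-finger DNA-binding domain, and a short stretch in its first finger, the P box, sets which DNA half-site is read. It is shown for 7 of them to compare the codons that set this half-site. The 30 bases are from GENCODE M21 transcripts, 5′ to 3′ in the coding strand, and the 15 capitals mark the 5 codons of the P box.
Thra: tgtGAGGGCTGCAAGGGCttctttcgccgc
Thrb: tgtGAAGGCTGCAAGGGCttctttagaaga
Rara: tgtGAGGGCTGTAAGGGCttcttccgacga
Rxra: tgtGAGGGCTGCAAGGGCttcttcaagagg
Vdr: tgtGAAGGCTGCAAGGGTttcttcaggcgg
Esr1: tgcGAAGGCTGCAAGGCTttctttaagaga
Nr3c2: tgcGGCAGCTGCAAAGTCttcttcaaaaga
All 15 capitals of Rxra were the same as those of Thra. Thrb and Rara shared 14 of them with Thra and Vdr 13, and their changed bases leave the encoded amino acids the same. Esr1 shared 12 and Nr3c2 10, with changed amino acids. Despite this likeness, the longest run of identical bases between the transcripts of any receptor pair compared was 29 bases (Rxra and Rxrb), and it was 26 bases for Thra and Thrb and 17 for Nr3c1 and Nr3c2. These runs are shorter than the 150-base reads, so a read cannot match 2 of these paralogs along its whole length.

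The libraries held 62318534 to 64000969 deposited estimated counts in NOD/Ltj and 58426580 to 76554340 in ICR. The lacrimal markers Lpo, a secreted peroxidase, and Aqp5, an acinar water channel, were present throughout, at 1748 to 1828 and 71.5 to 79.2 CPM (counts scaled to library size) in NOD/Ltj and at 1539 to 2389 and 82.3 to 108 CPM in ICR. Several marker sets of other cells differed between libraries. The summed level of B cell markers was 105 to 428 CPM in NOD/Ltj and 2.04 to 5.84 CPM in ICR, and that of T cell markers was 30.1 to 93.0 CPM in NOD/Ltj and 2.15 to 3.57 CPM in ICR. Fibroblast markers summed to 416 to 567 CPM in NOD/Ltj and 601 to 2826 CPM in ICR, where ICR replicate 1 held the highest value. Summed acinar markers were lowest in that same library (20266 CPM, of which Scgb1b20 made 18274), though Aqp5 was highest there. Epithelial markers (851 CPM), which also served for the epithelial scaling below, and ductal markers (1334 CPM) were highest in ICR replicate 1 too. The ductal sum was nearly as high in NOD/Ltj replicate 2 (1289 CPM). Ltf made 1122 CPM of it in ICR replicate 1 and 1190 CPM in NOD/Ltj replicate 2. Skeletal muscle markers (104 CPM) and salivary gland genes (13047 CPM) were highest in ICR replicate 3, and among NOD/Ltj the salivary genes were highest in replicate 2 (2266 CPM). The part of these cell types in the receptor values was not tested, and in a bulk sample fewer cells of a type cannot be told apart from less RNA per cell. The Y-linked gene Ddx3y read 42.9 to 66.0 CPM in NOD/Ltj and 49.1 to 68.9 CPM in ICR, and Xist stayed at or below 1.71 CPM in every library.

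None of the 9 receptor genes passed the main test of NOD/Ltj against ICR glands, edgeR's quasi-likelihood test at a Benjamini-Hochberg adjusted p under 0.05. The same test called 416 of all 18537 genes (2.24%), with 349 (1.88%) higher and 67 (0.361%) lower. Before adjustment for the number of genes, 1 of the 9 (Thra) had an edgeR p under 0.05, against 13.1% of all genes. DESeq2 called 1 of the 9, again Thra, and 1183 of all genes it tested (6.42%), while limma-voom called 0 of the 9 and 0.771% of all genes. In the gene lists below a call is edgeR's unless DESeq2 is named. The differences in log2 CPM were below 0 for 6 of the 9 genes and above 0 for 3, with a median of −0.45, against −0.03 for all genes tested. Without ICR replicate 1 the median of the 9 was −0.09, so it rests largely on that library. In 2 of the 9 genes, Thra and Thrb, the NOD/Ltj and ICR values did not overlap, and 20% of all genes tested had groups that did not overlap.

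**Figure D1:**
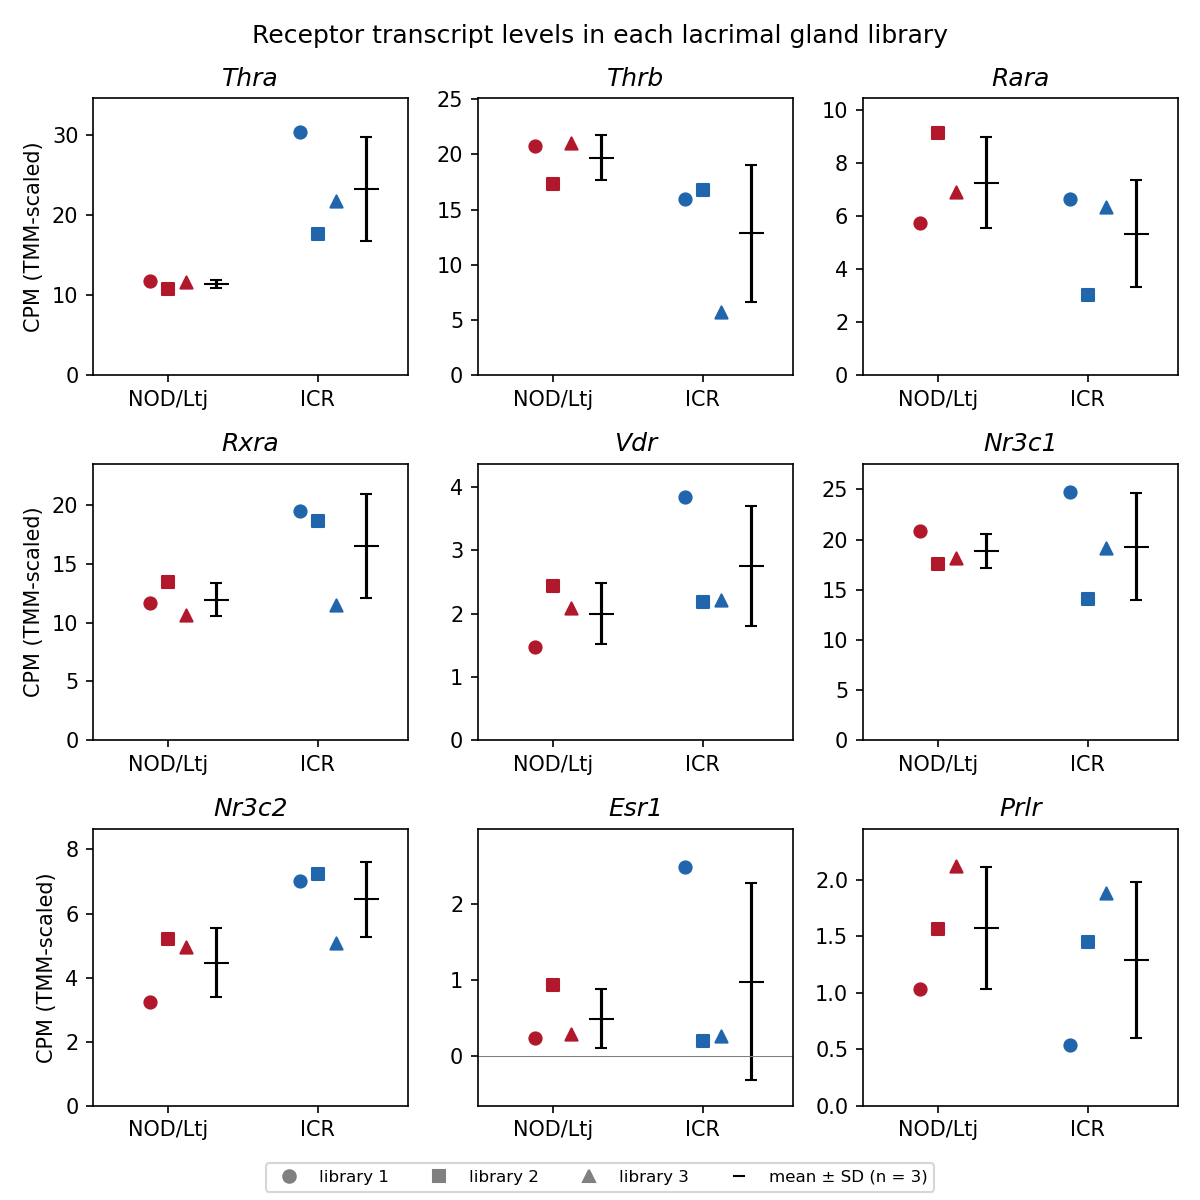
Level of each of the 9 receptor genes in TMM-scaled CPM on linear axes, a panel per gene, with the 3 NOD/Ltj libraries on the left and the 3 ICR libraries on the right of each panel; points are libraries, with a shape for each replicate number, and the bars beside them show the mean ± SD (n = 3), which for Esr1 in ICR runs below 0. Thra lies lower and Thrb higher in all 3 NOD/Ltj libraries, and the groups overlap in the other panels, where ICR replicate 1 often lies apart.

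The 2 thyroid hormone receptor genes differed in opposite directions, and they were the only receptors among the 9 whose groups were separate. Thra encodes thyroid hormone receptor alpha and, by alternative splicing at its 3′ end, a form that binds no hormone. It read 11.7, 10.8 and 11.7 CPM in the NOD/Ltj libraries, against 30.4, 17.6 and 21.7 CPM in the ICR libraries. Every NOD/Ltj value was below every ICR value, and the NOD/Ltj libraries were close to one another while the ICR libraries were spread. The means were 11.4 ± 0.522 CPM in NOD/Ltj and 23.2 ± 6.50 CPM in ICR (SD, n = 3 each), a difference of −1.03 ± 0.22 in log2 CPM (SE), or a level 0.490 times that of ICR. The edgeR adjusted p was 0.0709, which misses the threshold, and 8.89% of all genes tested were lower without overlap in NOD/Ltj. DESeq2 gave the same difference of −1.03 with an adjusted p of 0.00301. With any 1 library left out the edgeR difference lay between −1.19 and −0.80, with adjusted p between 0.0532 and 0.266. When libraries were scaled to epithelial keratin and adhesion genes in place of all genes, it was −0.58 with an adjusted p of 0.699. The median difference of all genes was then 0.32, against −0.03 in the main analysis.

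Thrb encodes thyroid hormone receptor beta, the form that mediates much of the feedback of thyroid hormone on the pituitary and its action in liver. It read 20.8, 17.4 and 21.0 CPM in NOD/Ltj, against 16, 16.8 and 5.72 CPM in ICR. The NOD/Ltj values all lay above the ICR values, but only narrowly except for ICR replicate 3, the library with the high salivary and muscle markers. The means were 19.7 ± 2.05 CPM in NOD/Ltj and 12.8 ± 6.18 CPM in ICR (SD, n = 3 each), a difference of 0.62 ± 0.38 in log2 CPM with an edgeR adjusted p of 0.570. Without ICR replicate 3 the difference was 0.27, with an adjusted p of 0.576. Thrb was higher without overlap, as were 11.2% of all genes tested.

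Because both genes are measured in the same library, their ratio does not depend on how libraries are scaled. The ratio of Thra to Thrb CPM was 0.563, 0.622 and 0.556 in NOD/Ltj and 1.90, 1.05 and 3.8 in ICR. It was below 1 in every NOD/Ltj library and above 1 in every ICR library. On the log2 scale the ratio averaged −0.79 ± 0.09 in NOD/Ltj and 0.97 ± 0.93 in ICR (SD, n = 3 each), a difference of −1.76. A two-sided exact permutation test gave p = 0.1, the smallest value that 3 against 3 libraries allow, and the pair was chosen after its values were seen. The ratio compares read counts of genes of unlike length, so it is not a ratio of transcripts.

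**Figure D2:**
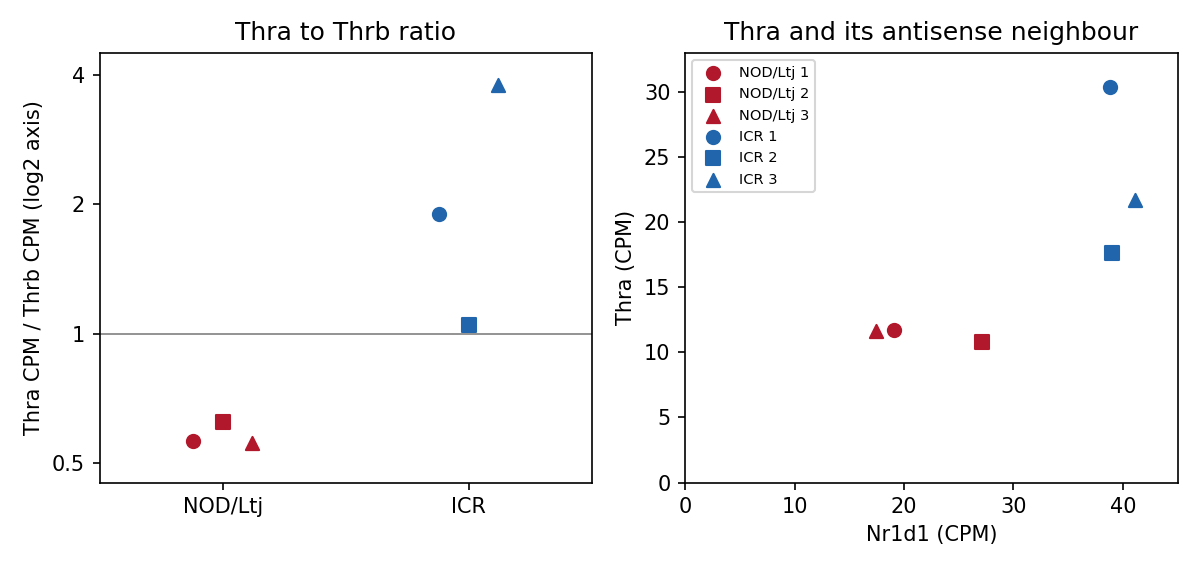
The left panel plots the ratio of Thra CPM to Thrb CPM on a log2 axis with a line at 1, and the right panel Thra CPM against Nr1d1 CPM on linear axes; each point is a library, red for NOD/Ltj and blue for ICR, with a shape for each replicate number. The Thra to Thrb ratio is below 1 in the 3 NOD/Ltj libraries and above 1 in the 3 ICR libraries, whereas Thra and Nr1d1 are both lower in NOD/Ltj.

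Thra also shares sequence with a neighbour. In the GENCODE M21 annotation (GRCm38) it lies on chromosome 11 from 98740638 to 98769006 on the plus strand, and near its 3′ end it overlaps the opposite-strand gene Nr1d1 over 263 exonic bases, 5.7% of Thra exon length and 8.55% of that of Nr1d1. Nr1d1 encodes REV-ERB alpha, a haem-binding repressor of the circadian clock. Of this overlap, 197 bases are coding in both genes (chr11:98768223-98768419, GRCm38, plus strand, so in the sense of Thra), and they are printed because reads from them can be told apart only by strand.
Thra and Nr1d1 overlap: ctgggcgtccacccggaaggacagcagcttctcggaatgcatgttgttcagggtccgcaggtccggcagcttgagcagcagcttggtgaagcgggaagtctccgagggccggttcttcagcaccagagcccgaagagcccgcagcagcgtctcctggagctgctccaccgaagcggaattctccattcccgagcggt
The library kit marks strand, but the strand setting of the counting is not given in the sources used here. Both genes are therefore uncertain by up to the reads of the whole overlap of 263 exonic bases. Nr1d1 read 19.1, 27.1 and 17.5 CPM in NOD/Ltj, against 38.8, 39.0 and 41.1 CPM in ICR. Every NOD/Ltj value was below every ICR value, a difference of −0.90 ± 0.20 in log2 CPM, with an edgeR adjusted p of 0.0822 and a DESeq2 adjusted p of 0.00724. The ratio of Thra to Nr1d1 was 0.612, 0.397 and 0.668 in NOD/Ltj and 0.782, 0.452 and 0.529 in ICR, and these overlapped (difference −0.07 in log2, two-sided exact permutation p = 0.9).

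As Nr1d1 varies with the time of day, 17 clock genes were read as well, a list chosen after values had been seen. None of the 17 was called by edgeR, and their median difference was −0.21 against −0.03 for all genes. In 5 of the 17 the groups did not overlap, as in 20% of all genes tested, and the choice of the list leaves nothing to be read from that count. Arntl, the activator of the clock's positive limb, read 2.07, 3.21 and 2.89 CPM in NOD/Ltj against 1.43, 1.32 and 1.57 CPM in ICR, and Cry1 was also higher. Dbp, an output gene of the clock, read 27.8, 37.1 and 29.6 CPM in NOD/Ltj against 42.9, 38.8 and 47.0 CPM in ICR (difference −0.45, edgeR adjusted p = 0.355), and Nr1d1 and Bhlhe41 were likewise lower. The part of collection time in these values was not tested.

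Thyroid hormone handling and response genes had mostly negative differences, but none passed the test. Of 14 listed genes 13 were tested, 0 were called in either direction, 11 of the 13 had negative differences, and the median was −0.56, against −0.03 for all genes. Ttr, which encodes the carrier protein transthyretin, averaged 1.5 ± 0.409 CPM in NOD/Ltj and 3.52 ± 1.35 CPM in ICR (SD, n = 3 each), a difference of −1.23 ± 0.40 with an edgeR adjusted p of 0.240. Its groups did not overlap, though only narrowly. The deiodinase gene Dio1 had 0 counts in all 6 libraries. The list's median was −0.43 without ICR replicate 1 and −0.15 when libraries were scaled to epithelial genes. That scaling moved the median of all genes to 0.32, so the list still lay below it.

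Neither retinoid receptor was called, and the groups overlapped in both. Rara encodes retinoic acid receptor alpha and read 5.76, 9.14 and 6.91 CPM in NOD/Ltj, against 6.65, 3.00 and 6.35 CPM in ICR. The groups overlapped, with ICR replicate 2 lowest and NOD/Ltj replicate 2 highest. The means were 7.27 ± 1.72 CPM in NOD/Ltj and 5.33 ± 2.02 CPM in ICR (SD, n = 3 each), a difference of 0.45 ± 0.35 in log2 CPM (edgeR adjusted p = 0.686), and 0.16 without ICR replicate 2. Rxra encodes retinoid X receptor alpha, the shared partner, and read 11.7, 13.4 and 10.7 CPM in NOD/Ltj, against 19.4, 18.6 and 11.4 CPM in ICR. ICR replicates 1 and 2 lay above all NOD/Ltj libraries, while ICR replicate 3 lay among them. The means were 11.9 ± 1.39 CPM in NOD/Ltj and 16.5 ± 4.40 CPM in ICR (SD, n = 3 each), a difference of −0.47 ± 0.24 (edgeR adjusted p = 0.478). With 1 library left out it ran from −0.67 without ICR replicate 3 (edgeR adjusted p = 0.193) to −0.35 without ICR replicate 1. The ratio of Rara to Rxra was 0.493, 0.681 and 0.647 in NOD/Ltj and 0.342, 0.161 and 0.554 in ICR, a difference of 0.94 in log2 (two-sided exact permutation p = 0.2).

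Among 20 genes of retinoid handling and response, 18 were tested and 1 was called, the lower Crabp1. Crabp1 encodes a cellular retinoic acid binding protein that carries retinoic acid in the cytoplasm, and it read 0.963, 0.760 and 1.65 CPM in NOD/Ltj, against 3.78, 5.94 and 7.06 CPM in ICR. All NOD/Ltj values were below all ICR values. It fell by 2.31 in log2 CPM (SE 0.41), with an edgeR adjusted p of 0.0343, whereas 0.361% of all genes tested were called lower. The call held with DESeq2 (adjusted p 3.90e-06) and, in edgeR, with DESeq2's library scaling (0.0352), no filter (0.0359) and a stricter filter (0.0240). It also held without ICR replicate 1 (edgeR adjusted p 0.0237). It was lost when another library was left out, with edgeR adjusted p of 0.103, 0.150 and 0.0882 without NOD/Ltj replicate 1, 2 or 3 and of 0.113 and 0.115 without ICR replicate 2 or 3. It was also lost with limma-voom (0.0554), scaling by totals only (0.0534), scaling to epithelial genes (0.107) and a replicate block (0.0793). The list's median was −0.86, with 15 of 18 differences negative, but −0.20 without ICR replicate 1.

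Vdr encodes the vitamin D receptor and was low in all glands. It read 1.48, 2.44 and 2.09 CPM in NOD/Ltj, against 3.84, 2.18 and 2.22 CPM in ICR. The groups overlapped, and ICR replicate 1 alone stood above the rest. The means were 2.00 ± 0.486 CPM in NOD/Ltj and 2.75 ± 0.948 CPM in ICR (SD, n = 3 each), a difference of −0.45 ± 0.36 (edgeR adjusted p = 0.694), and −0.15 without ICR replicate 1. Of 11 vitamin D metabolism and target genes only 5 passed the filter and 0 were called, with a median of −0.11. Among them Cyp27a1, a mitochondrial sterol hydroxylase that can hydroxylate vitamin D, averaged 44.3 ± 12 CPM in NOD/Ltj and 31.3 ± 6.54 CPM in ICR, without overlap (difference 0.50 ± 0.25, edgeR adjusted p = 0.476). Cubn, part of the receptor complex that takes up vitamin D binding protein in kidney, differed by 1.19 ± 0.73 (edgeR adjusted p = 0.571). Cyp24a1, the vitamin D inactivating enzyme that is a classical target of the receptor, had 0 counts in all 6 libraries.

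The glucocorticoid receptor gene Nr3c1 was at much the same mean level in both strains. It read 20.8, 17.6 and 18.2 CPM in NOD/Ltj, against 24.7, 14.0 and 19.1 CPM in ICR. All NOD/Ltj values lay within the range of the ICR values. The means were 18.9 ± 1.72 CPM in NOD/Ltj and 19.3 ± 5.34 CPM in ICR (SD, n = 3 each), a difference of −0.03 ± 0.23 (edgeR adjusted p = 0.975) that ran from −0.22 to 0.17 as libraries were left out. Nr3c2 encodes the mineralocorticoid receptor, which in epithelia controls sodium uptake. It read 3.24, 5.19 and 4.97 CPM in NOD/Ltj, against 7.01, 7.24 and 5.09 CPM in ICR. ICR replicates 1 and 2 were above all NOD/Ltj libraries, and ICR replicate 3 fell between NOD/Ltj replicates 3 and 2. The means were 4.47 ± 1.07 CPM in NOD/Ltj and 6.44 ± 1.18 CPM in ICR (SD, n = 3 each), a difference of −0.53 ± 0.28 (edgeR adjusted p = 0.496). The ratio of Nr3c1 to Nr3c2 was 6.42, 3.38 and 3.66 in NOD/Ltj and 3.53, 1.94 and 3.76 in ICR, a difference of 0.54 in log2 (two-sided exact permutation p = 0.5). It overlapped between the strains, and NOD/Ltj replicate 1 held its highest value.

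No glucocorticoid target was called by edgeR, and 1, Zbtb16, was called by DESeq2, which called 6.42% of all genes it tested. All 15 listed genes were tested, 12 had negative differences, and the median was −0.19, which was 0.02 without ICR replicate 1. Fkbp5, a co-chaperone and much used readout of receptor activity, read 119, 56.3 and 60.6 CPM in NOD/Ltj, against 82.1, 95.1 and 47.8 CPM in ICR, and the groups overlapped (difference 0.07 ± 0.37, edgeR adjusted p = 0.968). Zbtb16, a zinc-finger factor induced by glucocorticoid, read 3.24, 3.28 and 2.64 CPM in NOD/Ltj, against 9.997, 5.51 and 6.36 CPM in ICR. Its groups were separate, with a difference of −1.26 ± 0.29 (edgeR adjusted p = 0.0901, DESeq2 adjusted p = 0.00348). Errfi1, a feedback inhibitor of EGF receptor signalling, differed by −0.60 ± 0.31 (edgeR adjusted p = 0.502), and by −0.16 without ICR replicate 1. 

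Of 11 mineralocorticoid targets and partners 8 were tested and 0 were called, with a median of −0.02. Scnn1a, the alpha subunit of the epithelial sodium channel, read 3.41, 3.21 and 3.12 CPM in NOD/Ltj, against 5.13, 4.30 and 6.75 CPM in ICR. The groups did not overlap (difference −0.73 ± 0.26, edgeR adjusted p = 0.282). The beta and gamma subunit genes Scnn1b and Scnn1g were below the filter, with 0, 0 and 0 counts and 3, 0 and 0 counts in NOD/Ltj and with 0, 4 and 8 counts and 0, 0 and 0 counts in ICR. Hsd11b2, the enzyme that shields the mineralocorticoid receptor from glucocorticoid, had 4, 12 and 4 counts in NOD/Ltj and 3, 0 and 0 counts in ICR, at or under the floor of 12 counts (about 3 fragments). The sodium pump subunit gene Atp1b1 differed by −0.54 ± 0.30 (edgeR adjusted p = 0.529).

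Esr1, which encodes oestrogen receptor alpha, was near the limit of detection in 4 of the 6 libraries. It read 0.241, 0.934 and 0.288 CPM in NOD/Ltj, against 2.48, 0.194 and 0.262 CPM in ICR. Those values rest on 13, 75 and 19 estimated counts in NOD/Ltj and 172, 12 and 15 in ICR. The groups overlapped, and ICR replicate 1 held the highest value. That library had the highest sums of fibroblast (2826 CPM), macrophage (165 CPM) and adipocyte markers (73.6 CPM). NOD/Ltj replicate 2, with the next highest Esr1 value, had the lowest fibroblast sum (416 CPM). The part of these cell types in Esr1 was not tested. The means were 0.488 ± 0.388 CPM in NOD/Ltj and 0.980 ± 1.30 CPM in ICR (SD, n = 3 each). The difference of −1.0 ± 1.05 (edgeR adjusted p = 0.783) turned to 1.10 without ICR replicate 1, so no direction can be given. The related Esr2, for oestrogen receptor beta, read 2.43, 1.73 and 2.48 CPM in NOD/Ltj, against 1.21, 3.36 and 3.34 CPM in ICR, and also overlapped (difference −0.25 ± 0.44, edgeR adjusted p = 0.883).

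Of 13 oestrogen response genes 9 were tested, with a median of −0.03. EdgeR called 0 of them and DESeq2 called 1, Gata3, against 6.42% of all genes that DESeq2 tested. Gata3, a transcription factor of luminal epithelium that T cells also express, averaged 0.715 ± 0.493 CPM in NOD/Ltj and 0.0895 ± 0.0385 CPM in ICR (SD, n = 3 each). Its groups did not overlap (difference 2.97 ± 0.76, edgeR adjusted p = 0.118, DESeq2 adjusted p = 0.0129), and the T cell markers given above were higher in the same libraries. All 3 ICR values of Gata3 were below the floor of 12 counts (0.173 to 0.210 CPM in ICR). The size of its difference is therefore uncertain. Igfbp4, an insulin-like growth factor binding protein, read 9.48, 22.2 and 12.3 CPM in NOD/Ltj, against 146, 11.4 and 17.6 CPM in ICR. Its difference of −1.99 ± 0.93 (edgeR adjusted p = 0.427) was 0.01 without ICR replicate 1, as the value of that library stood far above the others. Among 17 enzymes of steroid synthesis and conversion 12 were tested and 0 were called, with a median of −0.16. Hsd17b1, which makes oestradiol from oestrone, read 0.241, 0.137 and 0.470 CPM in NOD/Ltj, against 0, 0.0808 and 0 CPM in ICR (edgeR adjusted p = 0.348). Its ICR values rest on the few counts of 1 library, so no size is given for the difference. Srd5a3, a steroid 5-alpha-reductase family member that acts in dolichol synthesis, averaged 6.62 ± 0.671 CPM in NOD/Ltj and 9.04 ± 1.74 CPM in ICR (difference −0.45 ± 0.22, edgeR adjusted p = 0.458).

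Prlr was also low. It read 1.04, 1.57 and 2.12 CPM in NOD/Ltj, against 0.534, 1.45 and 1.89 CPM in ICR. These rest on 56, 126 and 140 estimated counts in NOD/Ltj and 37, 90 and 108 in ICR. The groups overlapped almost fully, with ICR replicate 1 lowest. The means were 1.58 ± 0.542 CPM in NOD/Ltj and 1.29 ± 0.691 CPM in ICR (SD, n = 3 each), a difference of 0.29 ± 0.53 (edgeR adjusted p = 0.889) that was −0.09 without ICR replicate 1. The gene makes long and short receptor forms that differ in their cytoplasmic tail, and gene counts do not separate them. The ligand gene Prl had 0 counts in all 6 libraries.

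In the list of prolactin and related cytokine signalling 13 of 14 genes were tested, with a median of −0.03. EdgeR called 0 of them and DESeq2 called 2, Socs1 and Socs3, against 6.42% of all genes that DESeq2 tested. Jak2, the kinase bound to the receptor, read 16.7, 22.9 and 20.1 CPM in NOD/Ltj, against 14.4, 6.72 and 10.5 CPM in ICR. Its groups did not overlap (difference 0.92 ± 0.29, edgeR adjusted p = 0.217). Elf5, of the same list, averaged 21.7 ± 0.986 CPM in NOD/Ltj and 32.9 ± 6.85 CPM in ICR. It was lower without overlap (difference −0.60 ± 0.19, edgeR adjusted p = 0.220). In this list 3 of the 13 genes were separate and higher and 1 was separate and lower, against 11.2% and 8.89% of all genes tested. The groups overlapped in the transcription factor genes downstream of Jak2: Stat5a averaged 6.11 ± 1.62 CPM in NOD/Ltj and 6.39 ± 0.692 CPM in ICR, and Stat5b averaged 12.8 ± 1.97 CPM in NOD/Ltj and 13.1 ± 1.48 CPM in ICR (SD, n = 3 each). Socs3, a feedback inhibitor of cytokine receptors, averaged 7.21 ± 2.41 CPM in NOD/Ltj and 2.17 ± 1.36 CPM in ICR, without overlap (difference 1.73 ± 0.48, edgeR adjusted p = 0.150, DESeq2 adjusted p = 0.00906). EdgeR also called Socs3 without ICR replicate 1 (2.36, adjusted p 0.0284) and when libraries were scaled to epithelial genes (2.25, adjusted p 0.00944). The epithelial scaling also raised the median of all genes, to 0.32. Socs1, an inhibitor induced by interferon, averaged 0.889 ± 0.413 CPM in NOD/Ltj and 0.164 ± 0.0951 CPM in ICR, again without overlap (difference 2.42 ± 0.68, edgeR adjusted p = 0.156, DESeq2 adjusted p = 0.0235). Its values in ICR replicates 2 and 3, 0.162 and 0.0699 CPM, were below the floor of 12 counts (0.194 and 0.210 CPM). The size of that difference is therefore uncertain. Many cytokines induce both inhibitors, and the B and T cell markers were higher in the same NOD/Ltj libraries. Their part in these values was not tested.

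**Figure D3:**
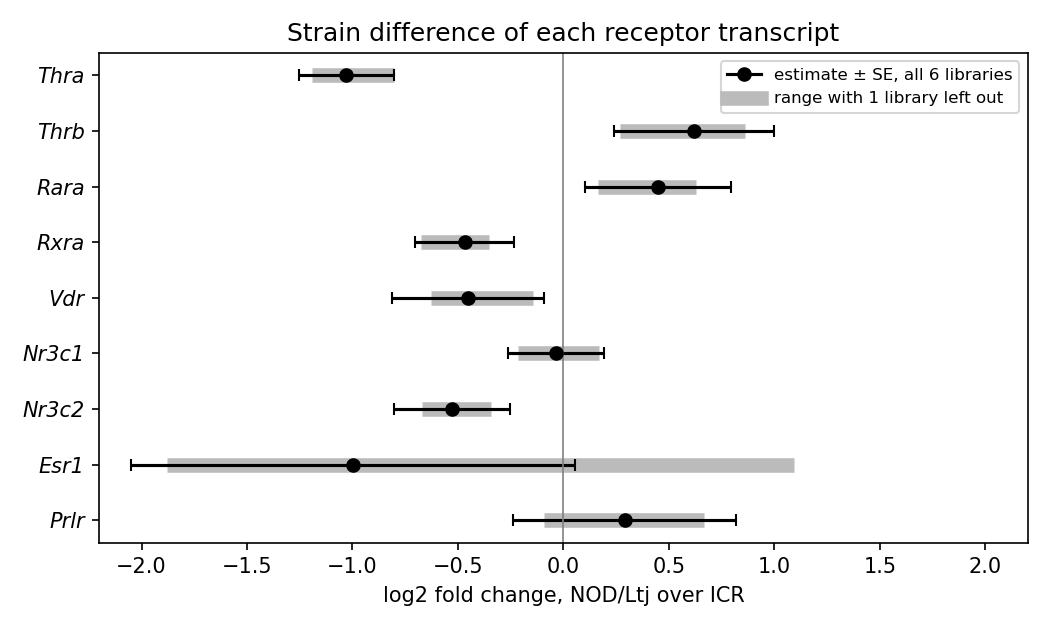
NOD/Ltj over ICR difference in log2 CPM of each of the 9 receptor genes, with the point and bar giving the edgeR estimate and its SE and the grey band the range with 1 library left out; the vertical line marks 0. The value of Thra is below 0 and that of Thrb above 0 in every such fit, whereas the bands of Esr1, Nr3c1 and Prlr cross 0.

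Genes of other nuclear receptors and of receptor partners were not called by edgeR. DESeq2 called 2 of them, Nr1d1 and Ppargc1a, against 6.42% of all genes it tested. Of the 39 other nuclear receptor genes 29 were tested, 22 of them with negative differences, and the median was −0.25. In 4 of the 29 the groups were separate and lower in NOD/Ltj, against 8.89% of all genes tested, among them Nr1d1 and Nr4a3, an orphan receptor of the immediate early class that averaged 1.67 ± 0.140 CPM in NOD/Ltj and 2.96 ± 0.812 CPM in ICR (SD, n = 3 each; difference −0.82 ± 0.31, edgeR adjusted p = 0.318). The 16 coactivators had a median of 0.09 and 0 edgeR calls. Ppargc1a, the coactivator of mitochondrial and oxidative genes, averaged 0.514 ± 0.0797 CPM in NOD/Ltj and 1.52 ± 0.291 CPM in ICR, without overlap (difference −1.56 ± 0.38, edgeR adjusted p = 0.107). It was called by DESeq2 (adjusted p 0.00828) and by edgeR after a stricter filter on low counts (adjusted p 0.0444). Its relative Ppargc1b differed by −0.96 ± 0.50 (edgeR adjusted p = 0.494).

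The 9 corepressors had a median of −0.04 and 0 calls. Tbl1x, a subunit of the NCoR and SMRT complex, averaged 30.7 ± 2.13 CPM in NOD/Ltj and 25.3 ± 2.21 CPM in ICR (SD, n = 3 each), without overlap (difference 0.28 ± 0.16, edgeR adjusted p = 0.528), and Lcor differed by −0.57 ± 0.35 (edgeR adjusted p = 0.570). The 12 chaperones of steroid receptors had a median of −0.33 and 0 calls, with 4 genes separate and lower in NOD/Ltj, against 8.89% of all genes tested. Bag1, an HSP70 co-chaperone that binds several nuclear receptors, averaged 28.8 ± 4.69 CPM in NOD/Ltj and 44.3 ± 14.0 CPM in ICR (difference −0.63 ± 0.26, edgeR adjusted p = 0.365). Fkbp4, the co-chaperone that aids transport of steroid receptors to the nucleus, averaged 71.9 ± 7.37 CPM in NOD/Ltj and 97.8 ± 14.3 CPM in ICR (difference −0.44 ± 0.19, edgeR adjusted p = 0.391).

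**Figure D4:**
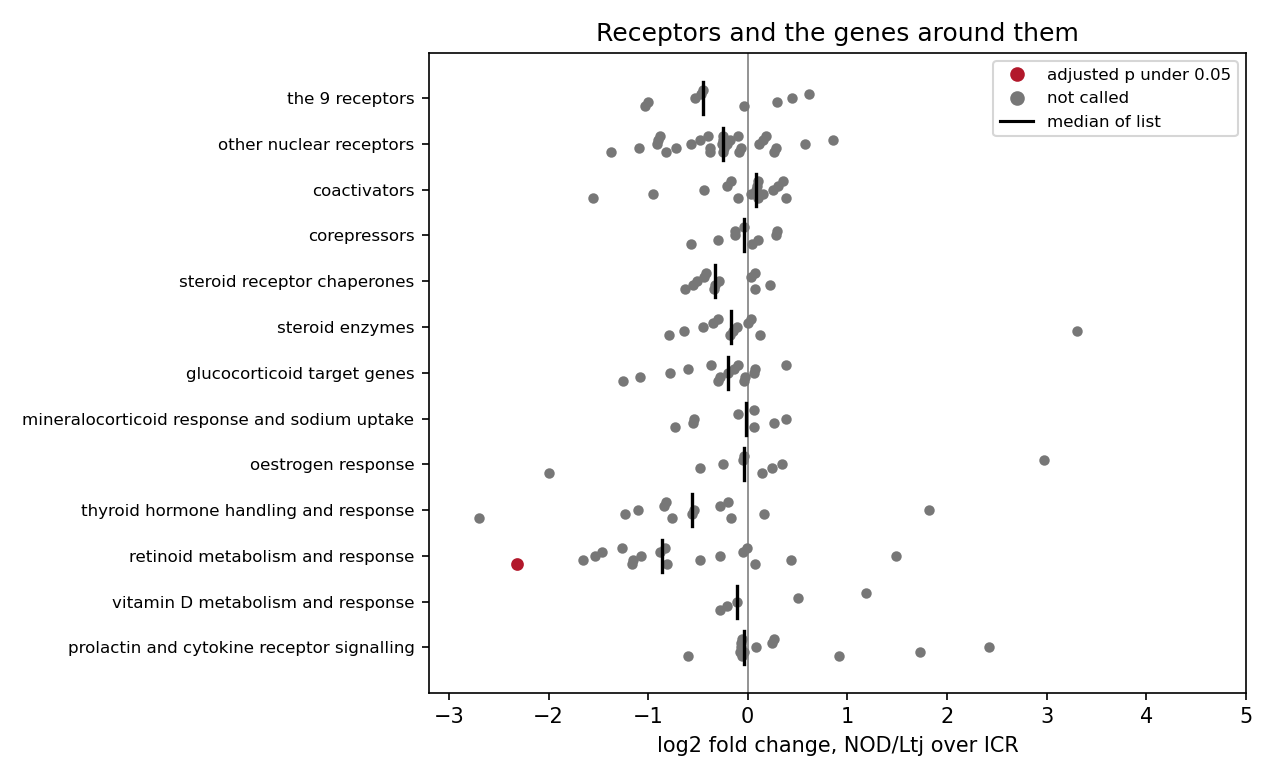
NOD/Ltj over ICR difference in log2 CPM for each tested gene of the 9 receptors and the lists around them, a row per list, with points for genes (red where the edgeR adjusted p was under 0.05) and a bar at each list's median; the vertical line marks 0. The medians of the thyroid and retinoid lists lie lowest, at −0.56 and −0.86, and the 1 red point is Crabp1.

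Levels of different receptors were compared as CPM per kilobase of merged exon. This length pools the exons of all annotated transcripts of a gene (15.34 kb for Prlr, 4.365 kb for Rara) and can exceed any 1 transcript. The order is therefore approximate, and the Thra count is uncertain over its overlap with Nr1d1. In NOD/Ltj the order was Thrb (2.66 ± 0.277), Thra (2.47 ± 0.113), Nr3c1 (2.45 ± 0.224), Rxra (2.18 ± 0.255), Rara (1.67 ± 0.394), Nr3c2 (0.690 ± 0.165), Vdr (0.355 ± 0.0860), Prlr (0.103 ± 0.0353) and Esr1 (0.0357 ± 0.0284) CPM per kilobase (SD, n = 3). The 3 highest differed from one another by less than the largest of their SDs. In ICR the order was Thra (5.03 ± 1.41), Rxra (3.02 ± 0.806), Nr3c1 (2.51 ± 0.695), Thrb (1.73 ± 0.834), Rara (1.22 ± 0.463), Nr3c2 (0.995 ± 0.182), Vdr (0.486 ± 0.168), Prlr (0.0842 ± 0.0451) and Esr1 (0.0718 ± 0.0954) CPM per kilobase (SD, n = 3). There Rxra, Nr3c1, Thrb and Rara each differed from the next gene in the order by less than the larger of their SDs, and so did Prlr. The order below Rara was the same in both strains, and Thrb stood at the top in NOD/Ltj and in the fourth place in ICR.

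The likeness of patterns was measured as the root mean square distance between log2 CPM values centred on each gene's mean over the 6 libraries. Among 9280 genes with a mean of at least 5 CPM, the 3 nearest to Thra were 1700019D03Rik (0.108), Gm13340 (0.114) and Gstp1 (0.133), each in log2 units. Among the 9 receptors the nearest to Thra was Vdr, at 0.382. The closest pair of the 9 was Nr3c2 and Rxra, at 0.240, both of which were highest in ICR replicates 1 and 2. Vdr was nearest to Nr3c2 (0.260), Nr3c1 to Vdr (0.381) and Rara to Nr3c1 (0.406). Thrb (0.681, nearest Rxra), Prlr (0.801, nearest Rara) and Esr1 (0.941, nearest Vdr) had no close partner among the 9.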

How the data were processed

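Polyadenylated RNA of 6 lacrimal gland samples was sequenced as stranded paired-end libraries, per the labels' protocols. The deposited table holds the authors' estimated counts per gene, whole numbers in which 1 fragment is worth about 4 counts, and the floor was set at 12 counts. The tools listed in the submitters' processing notes are fastp, StringTie and edgeR, whose versions and roles are not stated. For the aligner, build and counting strand, nothing is given in the sources used here. Symbols came from GENCODE M21 (55141 of 55401 identifiers matched). Counts were analysed as deposited with edgeR 4.0.16 (TMM, filterByExpr, quasi-likelihood test, Benjamini-Hochberg adjustment over all 18537 genes), and CPM were computed with TMM. The test was tested on simulated data. Ratios were compared by exact permutation over samples. Alternatives were DESeq2 1.42.0, limma-voom 3.58.1, other scalings, filters, a replicate block and omission of libraries. Named genes were the 9 receptors and, of every other list, the called genes (at most 4) or else the 2 with the lowest adjusted p; other genes named in the text were chosen after their values were seen. The 9 receptors and the gene lists were chosen with earlier results of these data known. The counts were first taken for raw counts in the design, and the same test was kept. Of the genes the naming rule picks, 1 is not reported here.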

Additional observations from a re-analysis of the deposited data

How the results depend on the processing

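Of all genes tested the main count of 416 calls became 1183 with DESeq2, 143 with limma-voom, 266 when libraries were scaled by totals only and 730 when they were scaled to epithelial genes. It lay between 13 (without NOD/Ltj replicate 3) and 524 (without ICR replicate 1) with 1 library left out, and was 2 without both ICR replicate 3 and NOD/Ltj replicate 2, an alternative chosen after seeing the data. With the replicate number as a block it was 154, with 0 of the 9 receptors called. Same-numbered libraries correlated in their deviations from the group means at −0.12, −0.15 and 0.07, and differently numbered ones at −0.07 to 0.17. With 3 libraries a group, these values cannot decide whether the numbers pair the samples, which the labels do not say. Of the 9 receptors 1 (Thra) was called with DESeq2, and 0 under every other setting run. Signs turned in log2 for Esr1, Prlr and Igfbp4 without ICR replicate 1 and for Nr3c1 under 6 settings. With libraries left out, the combined omission of ICR replicate 3 and NOD/Ltj replicate 2 included, Esr1 lay between −2.33 (the combined omission) and 1.10 (without ICR replicate 1) and Igfbp4 between −2.85 and 0.0101 under the same 2 settings. Prlr lay between −0.0943 (without ICR replicate 1) and 0.67 (the combined omission), and Nr3c1 between −0.218 (without ICR replicate 2) and 0.17 (without ICR replicate 1). Nr3c1 was also 0.0048 without NOD/Ltj replicate 2, 0.0089 in the combined omission, 0.0257 with totals only, 0.40 with epithelial scaling and 0.00059 with the block. The cause was not tested. The median difference of all genes was −0.03 in the main analysis, 0.09 with totals only and 0.32 with epithelial scaling. Differences under those scalings are therefore shifted as a whole, but by amounts that vary between genes. With epithelial scaling Errfi1 moved from −0.60 to −0.07 and Gata3 from 2.97 to 3.25. The stricter filter removed Esr1 and Prlr. Depth limits Esr1, Prlr and Hsd17b1, which rest on few fragments, and Gata3 and Socs1, whose ICR values lie at few fragments. With 3 libraries a group, a permutation test cannot give a p below 0.1.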
